A study of Mus musculus with 4 samples.

Results

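The cells described here carried transcripts of both Hmga2 and Tm4sf1 and almost none of Ptprc, the gene of the leukocyte surface protein CD45. They were taken from all barcodes with at least 1000 unique molecular identifiers (UMIs, each marking 1 counted transcript molecule), at least 200 genes and at most 10% of UMIs from mitochondrial genes. A barcode was chosen when it held at least 2 UMIs of Hmga2, at least 2 of Tm4sf1 and at most 1 of Ptprc. The rule found 705 of 15752 kept barcodes: 313 of 4081 in aC+C, 145 of 4208 in C, 150 of 4027 in Ac and 97 of 3436 in IgG. They are called Hmga2/Tm4sf1 cells below.

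The series is single-cell RNA sequencing of mouse cells on the 10x Genomics droplet platform, with 1 library in each of the groups aC+C, C, Ac and IgG. The labels spell out none of these names and give no agent, dose or time of treatment. The sample titles describe immune cells that had infiltrated tumors and the series title describes CD8+ T cells of tumors, whereas the cell type field names goblet cells. The protocol text in turn describes the gut of RedMUC298trTg mice and a sort of live cells on mCherry against a C57Bl6 mouse, and an age of 6-8 weeks stands in the genotype field of all 4 libraries.

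HMGA2 is a small protein that binds the minor groove of AT-rich DNA and alters chromatin architecture. It is made in embryonic mesenchyme, is mostly silent in adult tissue and is expressed again in many tumors. TM4SF1 is a surface protein of the L6 family that spans the membrane several times and is found on endothelial, mesenchymal and many tumor cells. Fibroblasts, the usual mesenchymal cells of a tumor's stroma, are recognised by Dcn, Lum, Pdgfra and collagen genes. Mesenchymal cells present peptides on MHC class I molecules, and interferon gamma released by T cells raises transcription of those genes, of guanylate-binding proteins and of the chemokines Cxcl9 and Cxcl10.

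The libraries held 61519049 to 75665201 UMIs, and 3.58% to 4.99% of these lay in barcodes of 1 to 50 UMIs, taken as free RNA. The median kept barcode had 10493 to 11594.5 UMIs. Libraries shared 2 to 7 kept barcodes in any pair, and no barcode of an Hmga2/Tm4sf1 cell was shared. With 1 library per group, no difference between groups could be tested against replicates. All intervals below are 95% intervals for counting error only, and molecules of 1 cell are not independent, so the true error is wider.

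Hmga2/Tm4sf1 cells were 7.67% of kept barcodes in aC+C (Clopper-Pearson interval 6.87 to 8.53), 3.45% in C (2.92 to 4.04), 3.72% in Ac (3.16 to 4.36) and 2.82% in IgG (2.30 to 3.43). The share was highest in aC+C, whose counting interval overlapped none of the others, while those of C, Ac and IgG overlapped. With 1 library per group, these intervals do not cover differences between preparations. The cells contributed 28.2% of the UMIs of kept barcodes in aC+C, 10.6% in C, 16.4% in Ac and 9.92% in IgG. The limit on Ptprc mattered to the order of the libraries. Barcodes with both genes and more than 1 Ptprc UMI numbered 68 in aC+C, 114 in C, 30 in Ac and 28 in IgG. With them the shares were 9.34% in aC+C (8.46 to 10.3), 6.15% in C (5.45 to 6.92), 4.47% in Ac (3.85 to 5.15) and 3.64% in IgG (3.04 to 4.32), so that C stood above Ac. Those barcodes had median totals of 72635, 68624.5, 88813.5 and 75313.5 UMIs in the same order of libraries. Among the barcodes with the highest doublet scores, 41 in aC+C, 18 in C, 18 in Ac and 6 in IgG were of this kind, against 3, 0, 3 and 0 Hmga2/Tm4sf1 cells. Their origin as doublets was not tested further.

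**Figure D1:**
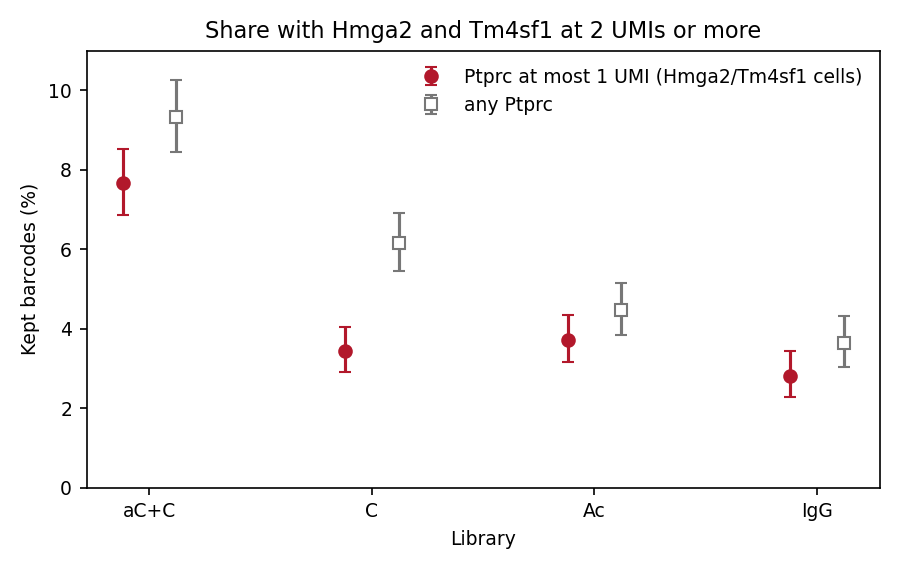
Share of kept barcodes in each library (percent, y axis) that met the rule with the Ptprc limit and without it, for aC+C, C, Ac and IgG, with Clopper-Pearson 95% intervals. With the limit the share was 7.67% in aC+C and 2.82% to 3.72% in the other libraries; without it C reached 6.15%.

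Some cells lay at the thresholds. Of the chosen cells, 15 in aC+C, 18 in C, 13 in Ac and 10 in IgG held exactly 2 Hmga2 UMIs, and 3, 8, 0 and 2 held exactly 2 Tm4sf1 UMIs. Just outside, 32, 31, 33 and 9 kept barcodes with at most 1 Ptprc UMI had 1 Hmga2 UMI with enough Tm4sf1, and 0, 3, 0 and 0 had 1 Tm4sf1 UMI with enough Hmga2. A Ptprc UMI was present in 55, 32, 21 and 9 of the chosen cells.

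The comparison class was fibroblast-like cells, kept barcodes with at least 5 Dcn UMIs and at most 1 Ptprc UMI that missed the rule. Dcn encodes the matrix proteoglycan decorin. There were 251 of them, 68 in aC+C, 82 in C, 64 in Ac and 37 in IgG. The division between the classes was made mainly by Hmga2 and not by Dcn. At least 5 Dcn UMIs were found in 295 Hmga2/Tm4sf1 cells of aC+C, 144 of C, 143 of Ac and 93 of IgG, that is in 94.2%, 99.3%, 95.3% and 95.9% of them. Hmga2/Tm4sf1 cells thus made up 81.3%, 63.7%, 69.1% and 71.5% of all barcodes with that much Dcn and little Ptprc. Tm4sf1 at 2 UMIs or more was present in 60, 64, 60 and 29 of the fibroblast-like cells, and Hmga2 at 0 in 35, 41, 30 and 26 of them.

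Levels are CPM: a class of cells was pooled within each library, and the UMIs of a gene were expressed per 1000000 UMIs of that pool. Hmga2 (GRCm38.p6, chr10:120361268-120476469) reached 306, 267, 273 and 261 CPM in Hmga2/Tm4sf1 cells of aC+C, C, Ac and IgG, against 14.8, 22.4, 17.5 and 11 CPM in fibroblast-like cells. It was 0 in T cells, kept barcodes with Cd3e and Ptprc at 2 UMIs or more and neither Dcn nor Hmga2. The median cell held 14, 8, 11 and 10 Hmga2 UMIs, and the highest cell 94, 105, 149 and 83. Tm4sf1 (chr3:57285611-57387736) reached 1236, 992, 1171 and 1045 CPM in Hmga2/Tm4sf1 cells, against 646, 278, 439 and 359 CPM in fibroblast-like cells and 5.30, 1.96, 1.52 and 0.870 CPM in T cells. Both genes chose the cells, so these levels are a description. Dcn (chr10:97479500-97518163) was at 1299, 1861, 1360 and 1639 CPM in Hmga2/Tm4sf1 cells, and lower than in fibroblast-like cells in every library. Those had 3229, 3747, 3189 and 4855 CPM. As Dcn chose the fibroblast-like cells, this difference is a description too.

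**Figure D2:**
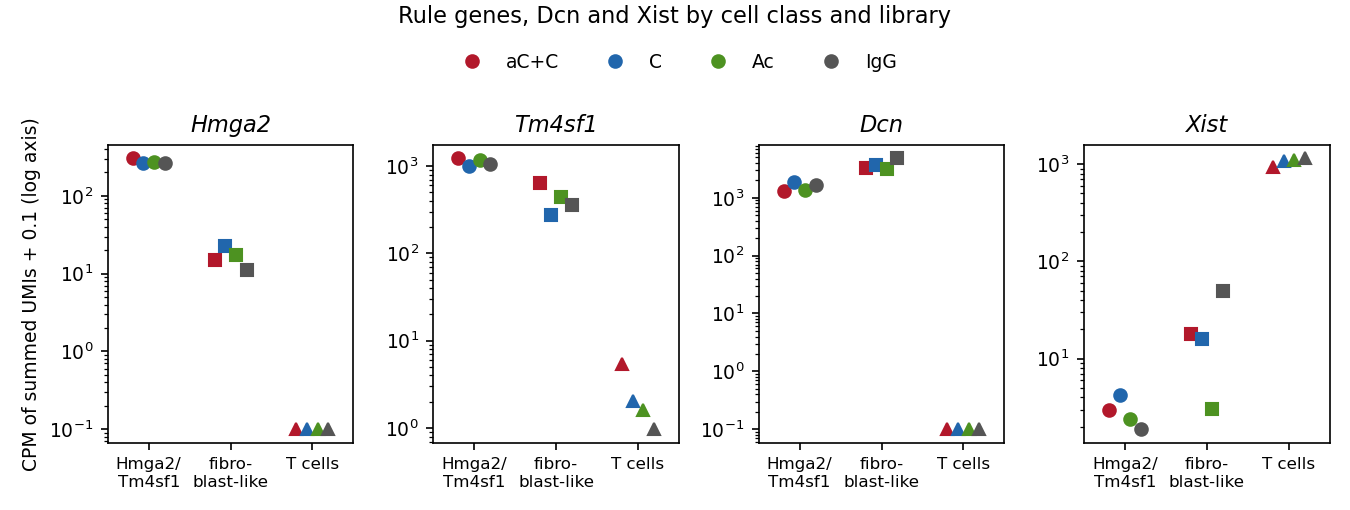
Level of Hmga2, Tm4sf1, Dcn and Xist (CPM of summed UMIs plus 0.1, log axis) in Hmga2/Tm4sf1 cells, fibroblast-like cells and T cells, 1 point per library and no error bars. Hmga2 and Tm4sf1 chose the first class, Dcn helped to choose the second, and T cells were chosen to lack Dcn and Hmga2. Dcn was above 1000 CPM in both mesenchymal classes. Xist was 936 to 1154 CPM in T cells against 1.78 to 4.09 CPM in Hmga2/Tm4sf1 cells.

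Of the other markers named for these cells, 2 were higher than in fibroblast-like cells and 1 was not. Tpm1, an actin-binding tropomyosin, was at 745, 582, 735 and 744 CPM in Hmga2/Tm4sf1 cells of aC+C, C, Ac and IgG, against 356, 290, 379 and 241 CPM in fibroblast-like cells. Htra1, a secreted serine protease, was at 507, 383, 497 and 436 CPM, against 312, 255, 267 and 281 CPM. Cald1, the actin-binding protein caldesmon, was at 629, 607, 632 and 604 CPM in Hmga2/Tm4sf1 cells, against 618, 623, 641 and 633 CPM in fibroblast-like cells, a mean ratio of 0.983. Ratios are geometric means over the 4 libraries of the level in Hmga2/Tm4sf1 cells over that in fibroblast-like cells, unless a library is named. Vim, the intermediate filament of mesenchymal cells, reached 4895, 5285, 5136 and 4799 CPM. Of 29 mesenchymal and contractile genes counted, none was at least 2 times higher or lower in every library. Over all genes counted, 2.98% were that much higher and 1.25% that much lower. The list's median ratio was 1.11, beside 1.00 over all genes counted. Of the same list, Myl9, a myosin light chain of contractile cells, Cdh2, the adhesion protein N-cadherin, and Ctgf, a secreted matrix-associated factor, were at 0 UMIs in Hmga2/Tm4sf1 cells, with 4, 3 and 8 UMIs in fibroblast-like cells. Vim, Cald1, Tpm1 and Dcn fit the label mesenchymal and these 3 genes do not. Cald1 and Tpm1 were named as markers with earlier results of these data known, so they are not independent support. Myl9, Cdh2 and Ctgf were also low in fibroblast-like cells, at 0.526, 0.395 and 1.05 CPM pooled over libraries, so their absence says little. Whether the cells are tumor cells was not tested. Xist and Cdkn2a, given below, were nearly absent from Hmga2/Tm4sf1 cells but present in T cells. The same near absence held for most fibroblast-like cells.

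Genes that define other cell types were at or near 0. Epcam, the adhesion protein of epithelia, was at 0 in all 42866004 UMIs of the class, which allows up to 0.0700 CPM, and the goblet cell genes Tff3, Spink4, Zg16 and Clca1 were at 0 as well. The melanocyte genes Sox10, Dct, Tyr and Tyrp1, the skeletal muscle genes Myod1, Myog, Myf5 and Pax7, and the pericyte and smooth muscle genes Rgs5, Kcnj8, Abcc9 and Myh11 were also at 0. Some genes often used for those lineages were detected. Krt8, a keratin of simple epithelia, was at 33.6, 20.6, 16.6 and 36.8 CPM in aC+C, C, Ac and IgG. Pdgfrb, a receptor of pericytes and fibroblasts, was at 37.9, 82.3, 49.5 and 63.7 CPM. Nes, an intermediate filament of progenitor cells, was at 75, 56.1, 79.5 and 64.4 CPM and Tubb3, a tubulin best known in neurons, at 59.3, 27.5, 53.1 and 35.7 CPM, while Map2 was at 0. Immune genes were low but present. The summed level of 14 monocyte and macrophage genes was 243, 326, 237 and 144 CPM in Hmga2/Tm4sf1 cells of aC+C, C, Ac and IgG, against 13477, 12958, 14740 and 7862 CPM in the free RNA. The 11 T and NK cell genes summed to 22.7, 23.3, 16.9 and 18.4 CPM in Hmga2/Tm4sf1 cells.

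Some genes that T cells of the same libraries carried were nearly absent from Hmga2/Tm4sf1 cells, and most were low or absent in fibroblast-like cells too. Xist (chrX:103460373-103483233), the RNA that silences the inactive X chromosome in female cells, was at 2.86, 4.09, 2.30 and 1.78 CPM in Hmga2/Tm4sf1 cells of aC+C, C, Ac and IgG. Fibroblast-like cells had 18, 16.0, 2.91 and 49.0 CPM, and T cells 936, 1076, 1090 and 1154 CPM. After each cell was thinned to 5000 UMIs, Xist was found in 1.28%, 0.690%, 0% and 1.03% of Hmga2/Tm4sf1 cells, in 6.25%, 5.00%, 0% and 11.1% of fibroblast-like cells, and in 95.9%, 98.1%, 96.2% and 97.6% of T cells. The Y-linked genes Ddx3y, Eif2s3y, Kdm5d and Uty were at 0 in Hmga2/Tm4sf1 cells and in fibroblast-like cells. Cdkn2a, which encodes inhibitors of the cell cycle (p16 and p19Arf), and its neighbour Cdkn2b were at 0 in all 42866004 UMIs of Hmga2/Tm4sf1 cells. T cells held Cdkn2a at 8.66, 8.73, 9.84 and 8.11 CPM, and fibroblast-like cells had 0 Cdkn2a UMIs among 7604489, which allows up to 0.395 CPM. A level of 0 in 3' counts does not show whether a gene is present in the genome.

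The clearest group of genes higher in Hmga2/Tm4sf1 cells was that of the cell cycle. A gene was counted if it had at least 100 UMIs over both classes in every library, and called higher or lower if its ratio was at least 2, or at most 0.5, in every library. Of 6734 genes counted, 201 were higher in Hmga2/Tm4sf1 cells (2.98%) and 84 were lower (1.25%). The cells were chosen by transcripts of the same cells, so these counts are a description and were not tested. The rule asks for raw UMIs and so favours deep cells, which also held more cell cycle transcripts. How much of the cell cycle difference is built in that way was not tested. Of 38 S phase genes counted, 25 were higher and none lower, with a median ratio of 3.25. Of 49 genes of G2 and M phase counted, 33 were higher and none lower, with a median ratio of 4.79. The medians by library were 2.54, 2.89, 2.24 and 5.20 for S phase and 3.82, 6.14, 2.40 and 8.16 for G2 and M phase in aC+C, C, Ac and IgG. They were thus lowest in Ac and highest in IgG, where the fibroblast-like class held only 37 cells. The counts also depended on the comparison class: when barcodes with Dcn and any amount of Ptprc were admitted to it, of which 72.2% to 86.8% of those added met both rule genes, 0 genes were higher in every library and the medians were 1.38 for S phase and 1.52 for G2 and M phase.

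Top2a, the topoisomerase that disentangles chromosomes, was at 618, 511, 702 and 628 CPM in Hmga2/Tm4sf1 cells of aC+C, C, Ac and IgG, against 97.0, 57.8, 209 and 23 CPM in fibroblast-like cells. Ube2c, the ubiquitin-conjugating enzyme of the anaphase-promoting complex, was at 383, 276, 389 and 419 CPM, against 36.8, 18.6, 113 and 27.0 CPM. Both were thus high in all 4 libraries and varied most among the fibroblast-like cells. Mki67, a chromosome-coating protein used as a marker of dividing cells, was at 140, 162, 200 and 166 CPM, against 26.0, 16.0, 66.5 and 7.0 CPM. Cdk1, the kinase that drives entry into mitosis, was at 214, 179, 213 and 208 CPM, against 33.2, 30.2, 52.5 and 12 CPM. In S phase, Clspn, an adaptor of the replication checkpoint, was at 48.5, 47.8, 55.1 and 54.4 CPM, against 9.88, 5.18, 21.4 and 2.00 CPM. Mcm5, a subunit of the replicative helicase, was at 119, 104, 112 and 111 CPM, against 36.8, 25, 49.1 and 19.0 CPM. The lowest ratios of the lists were those of Ubr7 in S phase (1.35) and Cbx5 in G2 and M phase (1.24). Of 16 cyclins, cyclin-dependent kinases and inhibitors counted, 5 were higher and none lower, beside 2.98% and 1.25% of all genes counted. Ccnd1, the cyclin D1 that carries growth signals into G1, was at 643, 481, 534 and 561 CPM in Hmga2/Tm4sf1 cells, 237, 173, 201 and 160 CPM in fibroblast-like cells, and 8.04, 28.0, 8.86 and 28.6 CPM in T cells. The inhibitor Cdkn1b (p27) had a ratio of 0.669.

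The 250 bases before the start of Ube2c and Top2a, the G2 and M phase genes with the highest ratios among those with an entry in the promoter table used, are shown because promoters of this gene class are known to carry a CCAAT box and the element called CHR, bound by the factors NF-Y and DREAM. They come from RefSeq on GRCm38.p6 and are written 5' to 3' on the gene's strand. Capitals mark matches to CCAAT or to the CHR letters TTTGAA on either strand.
Ube2c, chr2:164769679-164769928, plus strand: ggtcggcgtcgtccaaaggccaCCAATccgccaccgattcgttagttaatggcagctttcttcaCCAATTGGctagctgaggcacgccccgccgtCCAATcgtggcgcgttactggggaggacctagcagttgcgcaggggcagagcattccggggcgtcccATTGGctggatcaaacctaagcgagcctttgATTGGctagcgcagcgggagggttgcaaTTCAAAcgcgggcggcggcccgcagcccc
Top2a, chr11:99024190-99024439, minus strand: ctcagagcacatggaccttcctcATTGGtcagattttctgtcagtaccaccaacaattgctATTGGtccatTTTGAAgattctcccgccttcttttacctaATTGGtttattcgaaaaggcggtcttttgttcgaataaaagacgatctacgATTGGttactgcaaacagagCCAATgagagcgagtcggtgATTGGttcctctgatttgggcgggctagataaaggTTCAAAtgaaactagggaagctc
Ube2c had 1 CHR match, starting 29 bases before the start of the gene, and 6 CCAAT matches, of which a pair overlap. Top2a had 2 CHR matches, starting 179 and 23 bases before the start, and 6 CCAAT matches. Over 32851 promoters of the same length, 16.0% held the CHR letters and 33.8% a CCAAT. Among promoters of the G2 and M phase list, 21 of 51 (41.2%) held CHR and 38 of 51 (74.5%) CCAAT. Among those of the S phase list, 9 of 33 (27.3%) held an E2F match (TTTNGCGC or TTTCCCGC), against 2.00% of all promoters. Clspn and Rad51ap1, the S phase genes picked in the same way as Ube2c and Top2a, had no E2F match in this window. A match is not evidence of binding.

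The cell cycle transcripts were unevenly spread over the cells. At least 0.5% of UMIs came from the S and G2 and M lists in 63.6% of Hmga2/Tm4sf1 cells of aC+C, 49.0% of C, 61.3% of Ac and 55.7% of IgG. The same held for 13.2%, 9.76%, 23.4% and 10.8% of fibroblast-like cells and for 34.7%, 27.9%, 24.1% and 34.4% of T cells. Between 4 and 27 Hmga2/Tm4sf1 cells per library lay within 0.1 percentage points of that limit. Depth moved with this measure. In Hmga2/Tm4sf1 cells of aC+C, C, Ac and IgG its rank correlation with total UMIs was 0.633, 0.677, 0.710 and 0.663. The median total of Hmga2/Tm4sf1 cells was 62016, 44051, 64557.5 and 50581 UMIs, against 30580, 27850, 30544 and 27499 UMIs in fibroblast-like cells and 11872, 12481.5, 9873 and 13576.5 UMIs in T cells. Within the class, cells above the limit had medians of 71033, 66838, 77656.5 and 74537.5 UMIs and cells below it 44319, 34441.5, 39075 and 37860 UMIs. After thinning every cell to 5000 UMIs, Mki67 was found in 33.9%, 33.8%, 34.7% and 33.0% of Hmga2/Tm4sf1 cells, in 7.81%, 7.5%, 9.52% and 0% of fibroblast-like cells and in 27.5%, 23.6%, 21.7% and 26.4% of T cells. Without thinning the shares were 64.2%, 54.5%, 67.3% and 55.7% of Hmga2/Tm4sf1 cells, 11.8%, 15.9%, 21.9% and 13.5% of fibroblast-like cells, and 34.0%, 35.2%, 28.6% and 38.5% of T cells. Thinning left out 4, 2, 1 and 1 fibroblast-like cells and no Hmga2/Tm4sf1 cell.

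**Figure D3:**
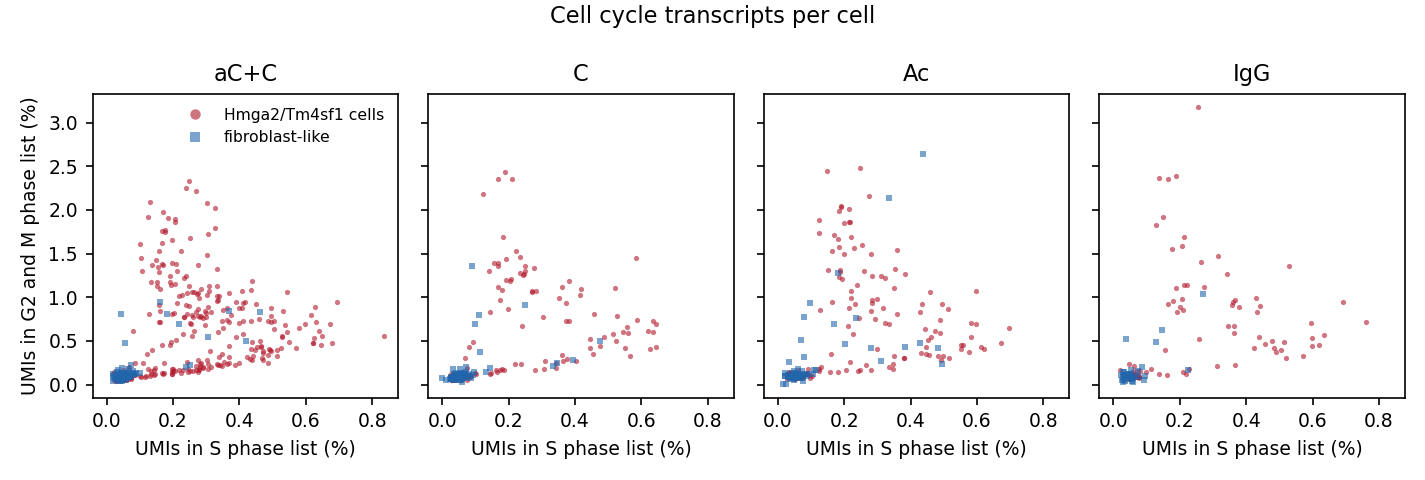
Percent of each cell's UMIs in the S phase list (x axis) and the G2 and M phase list (y axis), 1 panel per library, with Hmga2/Tm4sf1 cells as red circles and fibroblast-like cells as blue squares. Hmga2/Tm4sf1 cells spread along both axes, while most fibroblast-like cells sit near the origin; 49.0% to 63.6% of the first and 9.76% to 23.4% of the second held at least 0.5% of UMIs in the lists together.

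Genes outside the cell cycle lists that were higher in Hmga2/Tm4sf1 cells included secreted factors and surface proteins. Esm1, the secreted proteoglycan endocan, was at 165, 84.3, 159 and 108 CPM in Hmga2/Tm4sf1 cells of aC+C, C, Ac and IgG, against 31.9, 8.63, 30.6 and 8.00 CPM in fibroblast-like cells. Thinned to 5000 UMIs, 41.2%, 26.9%, 37.3% and 28.9% of Hmga2/Tm4sf1 cells held it, against 9.38%, 3.75%, 6.35% and 5.56% of fibroblast-like cells, and 0.189% to 0.613% of T cells, which should lack it. Hbegf, a ligand of the EGF receptor, was at 248, 136, 179 and 160 CPM, against 86.6, 49.6, 81.6 and 55.0 CPM. Upp1, the uridine phosphorylase, was at 258, 104, 136 and 85.0 CPM, against 50.3, 11.2, 29.6 and 9.0 CPM. Psat1, an enzyme of serine synthesis, had a ratio of 4.47, Fosl1, a subunit of the AP-1 factor, of 4.22, and Hist1h1b, a linker histone made in S phase, of 15.2. Nppb, the gene of a natriuretic peptide, was at 39.8, 17.0, 26.6 and 22.1 CPM, against 7.63, 0.431, 3.4 and 1.00 CPM. S100a4, a calcium-binding protein of motile cells, was at 1277, 1092, 1750 and 2136 CPM, against 635, 604, 515 and 280 CPM. It missed the count of higher genes because its ratio in C was 1.81.

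The other HMGA gene followed Hmga2. Hmga1 was at 144, 130, 106 and 75.1 CPM in Hmga2/Tm4sf1 cells of aC+C, C, Ac and IgG, against 38.2, 25.9, 23.8 and 18 CPM in fibroblast-like cells. It was the 1 gene called higher of 8 counted from the list of HMGA genes and let-7 targets, beside 2.98% of all genes counted. The let-7 microRNAs normally restrain Hmga2. The RNA-binding proteins of that list did not differ in the same way: Igf2bp1 was at 28.9, 31.2, 32.5 and 31.6 CPM, against 26.5, 30.2, 31.1 and 30.0 CPM, and Igf2bp2 had a ratio of 1.20. Lin28a, which blocks let-7 maturation, was at 0. Of the L6 family and tetraspanins, to which Tm4sf1 belongs, 6 were counted and none was called, with a median ratio of 0.966. Over all genes counted, 2.98% were called higher and 1.25% lower.

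Fibroblast and matrix genes were lower in Hmga2/Tm4sf1 cells. Of 8 fibroblast genes counted, 7 were lower and none higher, with a median ratio of 0.236. Of 20 genes of fibrillar matrix and matrix proteins counted, 9 were lower and none higher, with a median ratio of 0.390. Over all genes counted, 1.25% were lower and 2.98% higher. Col3a1, a fibrillar collagen, was at 598, 1134, 801 and 1292 CPM in Hmga2/Tm4sf1 cells of aC+C, C, Ac and IgG, against 3907, 3515, 3070 and 7552 CPM in fibroblast-like cells. Pdgfra, the growth factor receptor that marks fibroblasts, was at 30.9, 49.9, 47.3 and 60.3 CPM, against 140, 162, 166 and 190 CPM. Both stayed well above 0 in Hmga2/Tm4sf1 cells. Lum, the proteoglycan lumican, was at 16.4, 40.2, 17.2 and 22.8 CPM, against 319, 156, 245 and 481 CPM. C3, the central protein of complement, was at 18.5, 12, 12.2 and 5.53 CPM, against 173, 142, 86.9 and 686 CPM. Serpinf1, the secreted factor PEDF, was at 8.38, 33.2, 16.3 and 25.2 CPM, against 113, 137, 77.7 and 264 CPM. A further set was close to absent. Dpt, dermatopontin of adventitial fibroblasts, was at 0.0502, 0, 0.0999 and 0 CPM in Hmga2/Tm4sf1 cells, against 54.3, 33.2, 19.9 and 218 CPM in fibroblast-like cells. Cxcl12, a chemokine of stromal cells, was at 0 in Hmga2/Tm4sf1 cells of every library, against 59.3, 27.6, 0.486 and 62.0 CPM. The fibroblast-like cells included 10 with at least 5 Xist UMIs, 2 in aC+C, 4 in C, 0 in Ac and 4 in IgG. Of these, 8 held Dpt. How much of the Dpt and Cxcl12 levels came from these few cells was not tested.

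**Figure D4:**
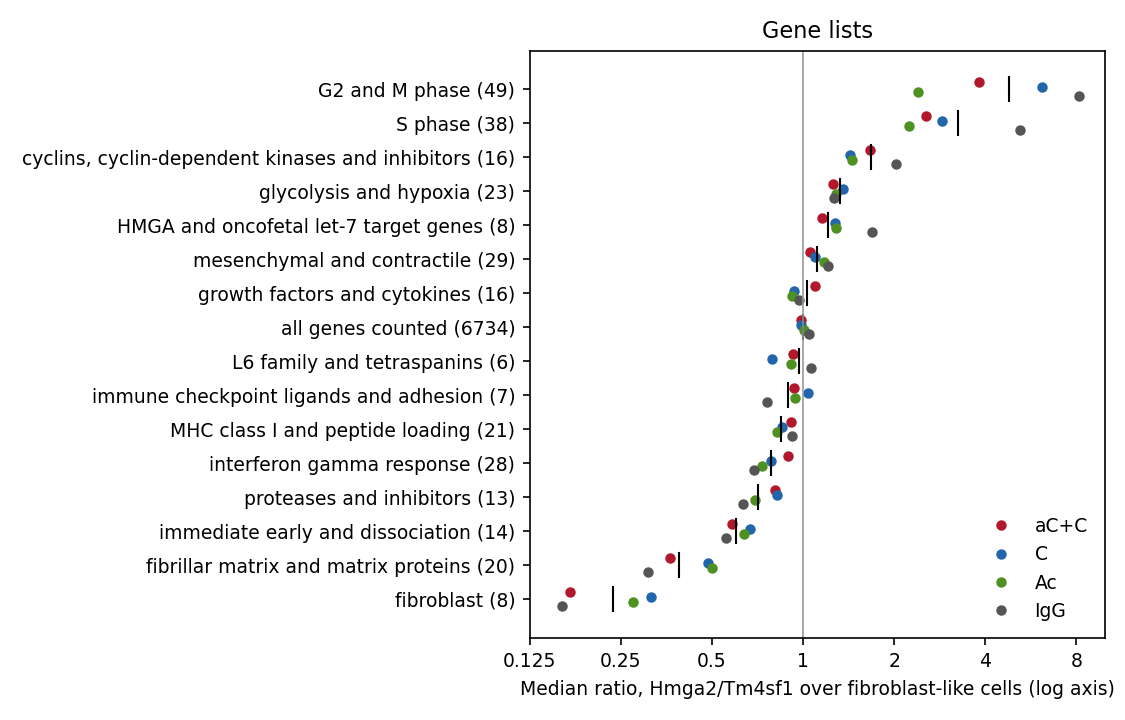
Median over each gene list of the ratio of Hmga2/Tm4sf1 cells over fibroblast-like cells (log axis), 1 coloured point per library and a black tick for the median of the geometric means over the 4 libraries. G2 and M phase (4.79) and S phase (3.25) lie highest, and the fibroblast (0.236) and matrix (0.390) lists lowest.

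When both classes were limited to cells with under 0.5% of UMIs in the cell cycle lists, a choice made after the data were seen, 3459 genes could be counted, 0 were higher and 5 lower in every library. Only 43 to 114 Hmga2/Tm4sf1 cells and 33 to 74 fibroblast-like cells per library were left. Of the 201 higher genes, 58 are in the cell cycle lists, and 14 others could still be counted. These had a median ratio of 1.53 in such cells, against 2.76 in all cells, and 13 of 14 kept their direction. Of the 84 lower genes, 70 could be counted, all 70 kept their direction, and their median ratio was 0.549, against 0.323 in all cells. In these cells S100a4 had a ratio of 3.28, Col3a1 of 0.448, Pdgfra of 0.477 and C3 of 0.0914. Hbegf had 1.53, against 2.66 in all cells, and Tpm1 1.65, against 2.24. Esm1, with a ratio of 6.92, and Upp1, with 4.61, had too few UMIs there to be counted. The same held for Nppb, with 4.89 against 13.7 in all cells, Psat1, with 2.45 against 4.47, and Fosl1, with 2.38 against 4.22.

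Within the class, cells clustered on their own fell into 4 clusters, and the genes that define them are a description. Cluster 2 (229 cells) was led by Ube2c, Cenpf and Ccnb1, genes of mitosis, and cluster 4 (202 cells) by Ung, Mcm3 and Cdc6, genes of DNA replication and repair, with Cd74 of the MHC class II pathway among its leading genes. Cluster 3 (216 cells) was led by Aspn, Col3a1, Apod and Ogn, genes of matrix-producing fibroblasts. It had Dcn at 3734 CPM, Hmga2 at 176 CPM and Mki67 at 6.80 CPM. Cluster 1 (58 cells) was led by the interferon-induced genes Cxcl10, Ifit3, Rsad2, Cxcl9 and Usp18, with Cxcl10 at 5283 CPM, against 603 CPM in the rest of the class. Hmga2 was at 346 CPM in cluster 1, 328 CPM in cluster 2 and 276 CPM in cluster 4. Depth differed between clusters, with medians of 62610.5, 79007, 36010 and 59692 UMIs in clusters 1 to 4. The Hmga2/Tm4sf1 cells therefore included cells with fibroblast genes as well as dividing ones, and the rule drew a line across a range of Dcn and Hmga2 levels.

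Antigen presentation genes were expressed in Hmga2/Tm4sf1 cells at somewhat lower levels than in fibroblast-like cells. B2m, the light chain of MHC class I, was at 1977, 2049, 1882 and 1957 CPM in Hmga2/Tm4sf1 cells of aC+C, C, Ac and IgG, against 2869, 3038, 2939 and 3280 CPM in fibroblast-like cells and 2820, 2937, 3357 and 3041 CPM in T cells. H2-K1, a class I heavy chain, was at 2626, 2423, 2109 and 2408 CPM, against 3591, 3292, 3018 and 3350 CPM in fibroblast-like cells. H2-D1, the other classical heavy chain, was at 2730, 2710, 2457 and 2654 CPM, against 3563, 3702, 3245 and 3505 CPM. In each library these 3 genes were lower in Hmga2/Tm4sf1 cells. Of 21 MHC class I and peptide loading genes counted, none was called in either direction, and their median ratio was 0.848. Over all genes counted, 2.98% were called higher and 1.25% lower. H2-T23, a non-classical class I gene, had a ratio of 0.512, and Psme2, an activator of the proteasome, of 1.22. Per cell, the median share of UMIs from the list was 1.28%, 1.31%, 1.15% and 1.26% in Hmga2/Tm4sf1 cells, 1.60%, 1.63%, 1.42% and 1.39% in fibroblast-like cells and 1.5%, 1.56%, 1.74% and 1.54% in T cells. In cells with few cell cycle transcripts the ratio was 0.819 for B2m, 0.829 for H2-K1 and 0.879 for H2-D1, nearer to 1. H2-Q7, a non-classical class I gene with near-identical neighbours whose counts are uncertain, was at 6.68, 7.22, 6.70 and 5.53 CPM in Hmga2/Tm4sf1 cells, against 996, 927, 1183 and 925 CPM in T cells.

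The study's groups were compared within Hmga2/Tm4sf1 cells by setting aC+C, C and Ac each against IgG. These 3 comparisons share the IgG library of 97 cells, so they are not independent. A gene was counted with at least 100 UMIs over both libraries. In aC+C, 81 of 9445 genes were at least 2 times higher than in IgG (0.858%) and 73 at least 2 times lower (0.773%). In C, 32 of 8395 were higher (0.381%) and 15 lower (0.179%), and in Ac, 24 of 8743 were higher (0.275%) and 14 lower (0.16%). The median ratio of all genes was 0.936 in aC+C, 0.972 in C and 0.990 in Ac. TMM scaling multiplied the ratios of aC+C by 1.09, a shift of 0.12 on the log2 scale, and gave 105 higher and 41 lower genes there.

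Interferon gamma response genes were higher in aC+C than in IgG. Counted at a ratio of 1.5, 15 of 30 such genes were higher in aC+C and none lower, with a median ratio of 1.49. The shares over all genes at that ratio were 2.32% higher and 5.99% lower. In C, 1 of 29 was higher and 2 lower, with a median of 0.959, beside 1.02% and 1.55% over all genes. In Ac, none of 29 was higher and 4 were lower, with a median of 0.814, beside 1.05% and 1.49%. The same list had medians of 1.00, 0.846 and 0.830 in fibroblast-like cells and 0.930, 1.07 and 1.02 in T cells, for aC+C, C and Ac over IgG. Whether the classes differ in this was not tested. Cluster 1, which these genes lead, was drawn mostly from aC+C, and its size is not compared between libraries because the same genes define it. More cells in that state and a higher level per cell were not separated.

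Gbp2, a guanylate-binding protein that acts against intracellular pathogens, was at 642 CPM in aC+C, 325 in C and 217 in Ac, against 267 CPM in IgG. Its ratio over IgG was 2.40 in aC+C (interval 2.28 to 2.54), 1.22 in C and 0.811 in Ac. Cxcl9, a chemokine that attracts T cells through CXCR3, was at 129, 56.1 and 34.9 CPM, against 42.8 CPM in IgG, with ratios of 3.01 (2.64 to 3.45), 1.31 and 0.814. Both were highest in aC+C and lowest in Ac. Igtp, an interferon-induced GTPase, was at 255, 128 and 82.9 CPM, against 106 CPM in IgG. Irf1, a factor that activates interferon-induced promoters, was at 279, 168 and 186 CPM, against 148 CPM. Cxcl10, which binds the same receptor as Cxcl9, was at 1435, 454 and 706 CPM, against 805 CPM in IgG, so that C was lowest. Ifngr1, a chain of the interferon gamma receptor, had a ratio of 0.816 in aC+C. Isg15, a ubiquitin-like protein better known from type I interferon, was at 277, 149 and 202 CPM, against 246 CPM. Per cell, the median share of UMIs from the list was 0.438% in aC+C, 0.301% in C and 0.255% in Ac, against 0.298% in IgG. The 90th percentile over cells was 1.56%, 1.01% and 1.04%, against 1.11%. After thinning to 5000 UMIs, Gbp2 was found in 74.1%, 51.7% and 43.3% of Hmga2/Tm4sf1 cells of aC+C, C and Ac, against 53.6% in IgG, and in 17.0% to 22.8% of T cells.

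The promoters of Gbp2 and Cxcl9, the genes of this list with the highest ratios in aC+C among those with an entry in the promoter table used, are shown because interferon-induced genes are known to be read through the elements ISRE and GAS, which bind factors activated by interferons. Capitals mark matches to ISRE (a pair of GAAA spaced by any 2 bases) or GAS (TTCNNNGAA) on either strand in the 250 bases before the start.
Gbp2, chr3:142620413-142620662, plus strand: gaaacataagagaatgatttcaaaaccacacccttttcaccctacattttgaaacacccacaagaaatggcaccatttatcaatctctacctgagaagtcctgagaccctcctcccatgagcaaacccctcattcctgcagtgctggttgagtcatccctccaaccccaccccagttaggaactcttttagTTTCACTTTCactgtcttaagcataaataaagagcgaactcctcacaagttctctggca
Cxcl9, chr5:92328080-92328329, minus strand: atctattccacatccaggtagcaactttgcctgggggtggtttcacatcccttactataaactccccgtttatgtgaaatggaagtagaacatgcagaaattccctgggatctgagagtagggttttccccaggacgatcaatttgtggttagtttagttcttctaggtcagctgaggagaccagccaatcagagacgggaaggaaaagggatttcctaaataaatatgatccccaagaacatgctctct
Gbp2 had 1 ISRE match, starting 59 bases before the start of the gene, and no GAS match. Cxcl9 had neither, which says only that these letters are not in this window. Of the promoters of the interferon gamma list, 14 of 28 held an ISRE match and 8 of 28 a GAS match, against 2.98% and 7.02% of 32851 promoters.

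**Figure D5:**
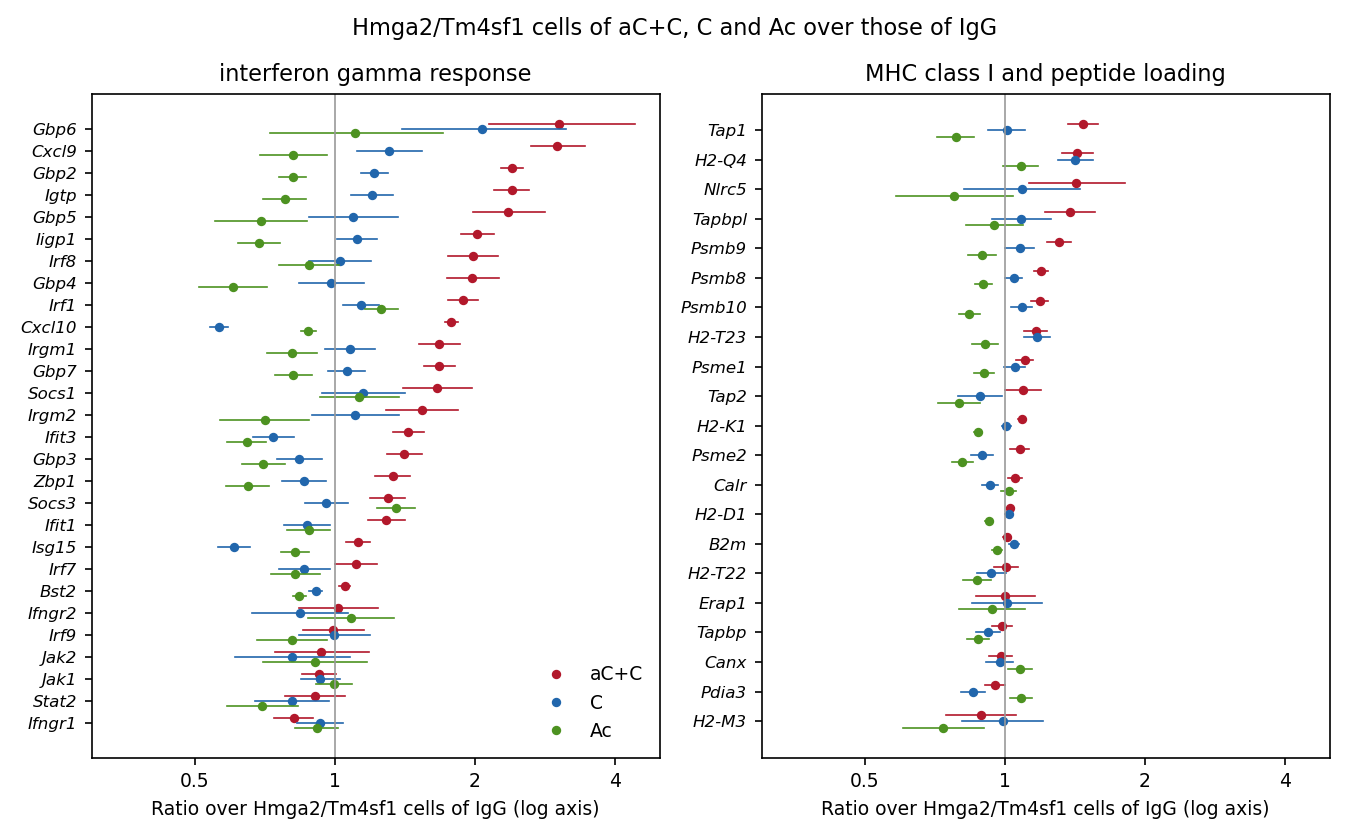
Ratio over IgG in Hmga2/Tm4sf1 cells (log axis) of interferon gamma response genes (28 of those counted in all 3 comparisons) and MHC class I genes (21) in aC+C, C and Ac, with 95% counting intervals. Interferon gamma genes of aC+C lie mostly above 1, up to 3.04 for Gbp6, while MHC class I genes stay near 1 in all 3 comparisons.

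The MHC class I list did not show that difference. None of its genes was at least 1.5 times higher or lower than in IgG, with medians of 1.09 in aC+C (22 genes), 1.01 in C and 0.900 in Ac (21 each). Tap1, a subunit of the peptide transporter, came nearest in aC+C, at 219, 150 and 116 CPM in aC+C, C and Ac, against 148 CPM in IgG, a ratio of 1.47 (1.37 to 1.59) in aC+C. H2-Q4 was at 202, 200 and 152 CPM, against 141 CPM. Cd274, the gene of the checkpoint ligand PD-L1, was at 29.2, 13.4 and 19.7 CPM, against 12.5 CPM in IgG, with ratios of 2.33 (1.82 to 3.04), 1.07 (0.779 to 1.47) and 1.58 (1.19 to 2.1). It was the 1 gene of 8 checkpoint ligands and adhesion proteins counted that passed 1.5 in aC+C, as 2.32% of all genes did. The list's median there was 1.10.

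Genes of glycolysis and the response to low oxygen were higher in aC+C and in Ac. Of 23 counted, 8 were at least 1.5 times higher in aC+C, 1 in C and 7 in Ac, and none was lower. Over all genes, 2.32%, 1.02% and 1.05% were that much higher, and 5.99%, 1.55% and 1.49% that much lower. The list had medians of 1.27, 1.02 and 1.38. The medians in fibroblast-like cells were 1.35, 1.01 and 1.34, and in T cells 1.02, 0.972 and 1.05. Ero1l, an oxidase of the endoplasmic reticulum induced by low oxygen, was at 90.1, 51.2 and 102 CPM in aC+C, C and Ac, against 46.8 CPM in IgG. Hk2, a hexokinase, was at 74.7, 32.0 and 65.1 CPM, against 38.5 CPM. Both had C beside IgG and the other libraries above them. Pgk1, a kinase of lower glycolysis, was at 64.7, 49.2 and 40.2 CPM, against 20.7 CPM, and its ratios of 3.13, 2.38 and 1.94 stood beside 2.5, 1.95 and 1.33 in T cells. P4ha2, a prolyl hydroxylase of collagen, was at 21.9, 10.6 and 15 CPM, against 6.60 CPM.

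Matrix genes were lower in aC+C than in IgG. Of 20 counted, 8 were at least 1.5 times lower in aC+C and none higher, 1 was lower and 1 higher in C, and 1 was lower in Ac, with medians of 0.702, 0.898 and 0.803. Over all genes, 5.99%, 1.55% and 1.49% were that much lower in aC+C, C and Ac, and 2.32%, 1.02% and 1.05% that much higher. Col6a2, a chain of collagen VI, was at 202, 368 and 313 CPM in aC+C, C and Ac, against 461 CPM in IgG. Col3a1 had ratios of 0.463 (0.450 to 0.477), 0.877 and 0.620. The matrix list had medians of 0.567, 0.472 and 0.461 in fibroblast-like cells, so the IgG library stood highest in that class as well. The fibroblast list differed in the same direction in Hmga2/Tm4sf1 cells of aC+C, with 6 of 9 genes at least 1.5 times lower, 1 higher and a median of 0.617. The size of cluster 3, which fibroblast and matrix genes lead, is not compared between libraries because the same genes define it. A different mix of cells and a lower level per cell were not separated here. Cell cycle genes showed no such difference. None of the 42 S phase genes passed 1.5 in either direction in any comparison, with medians of 1.04, 0.955 and 1.05, and the medians of G2 and M phase were 0.899, 0.863 and 1.04.

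Secreted factors differed by library. Of 21 growth factors and cytokines counted in aC+C, 7 were at least 1.5 times higher and 2 lower. In C, none of 16 was higher and 4 were lower, and in Ac 3 of 19 were higher and 2 lower. Over all genes, 2.32%, 1.02% and 1.05% were that much higher in aC+C, C and Ac, and 5.99%, 1.55% and 1.49% that much lower. Areg, a ligand of the EGF receptor, was at 46.3, 22.6 and 37.7 CPM in aC+C, C and Ac, against 18 CPM in IgG. Cxcl1, a chemokine of neutrophils, was at 404, 196 and 405 CPM, against 195 CPM. Both were high in aC+C and Ac and closer to IgG in C. In cells with few cell cycle UMIs, however, the ratio of Areg in Ac turned round to 0.956. Ccl7, a chemokine of monocytes, was at 218, 56.7 and 75.8 CPM, against 154 CPM, and Ccl2, another, at 4254, 1907 and 2775 CPM, against 3073 CPM. These were highest in aC+C and lowest in C. Csf2, the growth factor GM-CSF, was at 7.18, 2.86 and 2.1 CPM, against 0.535 CPM in IgG, where it rested on 3 UMIs, so its ratio of 13.4 in aC+C had an interval of 4.50 to 65.8.

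Genes of immune cells also differed by library within Hmga2/Tm4sf1 cells. Of 5 MHC class II genes counted, 2 were at least 1.5 times higher in aC+C, 4 in C and 4 in Ac than in IgG, with medians of 1.42, 3.5 and 2.53. Of 9 monocyte and macrophage genes counted, 6, 6 and 5 were higher, with medians of 1.64, 1.84 and 1.64. Over all genes, 2.32%, 1.02% and 1.05% were at least 1.5 times higher in aC+C, C and Ac. Limiting the cells to those with no Ptprc UMI brought the MHC class II medians to 1.18, 1.38 and 1.65 and the macrophage medians to 1.30, 1.07 and 1.21. With no Ptprc limit the MHC class II median of Ac turned round to 0.943. The interferon gamma medians in cells with no Ptprc UMI were 1.55 in aC+C, 1.00 in C and 0.835 in Ac. The part of free RNA and of attached cells in these values was not tested.

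Genes with the most extreme ratios over IgG were of several kinds. In aC+C the highest included F830016B08Rik, P4ha2, Apol6, Gm10073, Pgk1 and Gbp6, with ratios of 3.04 to 3.62. Gm10073, at 362, 269 and 111 CPM in aC+C, C and Ac against 114 CPM in IgG, and Gm10076, at 860, 989 and 464 CPM against 395 CPM, had ratios of 2.79, 2.28 and 0.935 and of 2.35, 2.44 and 1.22 in T cells. The counts of these genes are uncertain because near-identical copies exist. The lowest in aC+C were Serpinf1, Arhgef6, F3, Tns1, Hlf, Speg, Islr and Tcp11l2, with ratios of 0.333 to 0.369. Islr, a secreted protein of mesenchymal cells, was at 65.0, 177 and 103 CPM, against 177 CPM. In C the highest was Tyrobp, an adaptor of myeloid and NK cells, at 25.5 CPM against 6.07 CPM in IgG, and the lowest were Fbxl18, Lipg and Gm12840. In Ac the highest were Mt1, a metallothionein that binds zinc and copper, and Fyb, an adaptor of T and myeloid cells, each with a ratio of 2.53. With no Ptprc limit the ratio of Fyb turned round to 0.730. The lowest in Ac were Samd5 and Myh10, a non-muscle myosin.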

How the data were processed

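The authors deposited unfiltered matrices of raw UMI counts, and name lists for the genes and barcodes of each matrix. The submitters' processing notes name Cell Ranger 2.1.1 and mm10, while the software version in the matrix header is 3.0.2, per the file headers. The annotation release is not given in the sources used here. Members and gene lists were chosen with earlier results of these data known.

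Barcodes with at least 1000 UMIs, at least 200 genes and at most 10% mitochondrial UMIs were kept. Within a library, the cells of each class were pooled and a gene's counts were divided by the pool's total (CPM). Ratios have exact binomial 95% intervals and shares Clopper-Pearson intervals, both covering counting error only. No test was made, since each group has 1 library. Genes needed at least 100 UMIs over both sums, and Hmga2, Tm4sf1, Ptprc and Dcn were left out of counts. Doublets were kept in the main values, and removing the top Scrublet scores was an alternative. Cells were clustered with Leiden at resolution 0.5 (scanpy 1.11.5), on 2000 variable genes and 20 principal components. TMM factors came from edgeR 4.0.16 in R 4.3.3, other steps from Python 3.11.15 with numpy 2.4.6 and scipy 1.17.1. The scripts were tested on simulated sums of both classes, which had counting error only. Calling in every library found 97% of genes made 3 times higher and 92% of those made 3 times lower. It found 0% of those made 1.5 times higher or lower.

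Genes were named by rule: the fixed markers, the extremes and defining members of the gene lists, the 12 highest and 12 lowest genes over fibroblast-like cells, and the 8 highest and 8 lowest over IgG where no cell held over 20% of a gene's UMIs; some genes that met the rule are not reported here. Of 507 distinct genes in the lists, 4 were not in the files. Symbols listed for more than 1 gene (65) were kept apart. Promoters came from RefSeq on GRCm38.p6.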

Additional observations from a re-analysis of the deposited data

Results flagged for a closer look

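Between libraries, Timp1 and Lyz2 stood on opposite sides in Hmga2/Tm4sf1 cells relative to fibroblast-like cells. Timp1, an inhibitor of matrix proteases, had a ratio of 2.07 in Ac (151 against 72.8 CPM) and of 0.443 in IgG (113 against 256 CPM). Lyz2, a lysozyme of myeloid cells, had a ratio of 0.245 in Ac (36.5 against 149 CPM) and of 2.07 in IgG (20.7 against 10.0 CPM). These differences were not tested, as each group has 1 library.

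Other genes had ratios over IgG of at least 2 in one direction in Hmga2/Tm4sf1 cells and in the opposite direction in T cells, again untested. In aC+C, Cxcl9 had a ratio of 3.01 in Hmga2/Tm4sf1 cells and 0.458 in T cells. Nrg1, a growth factor of the EGF family, had 2.23 and 0.429. Plet1, a surface protein, had 3.22 and 0.0315, and Fam101b, a regulator of actin, had 0.453 and 3.54. In C, Ccl7 had a ratio of 0.368 in Hmga2/Tm4sf1 cells and 2.29 in T cells. In Ac, Il1b, an inflammatory cytokine, had a ratio of 5.55 in Hmga2/Tm4sf1 cells, from 21.8 against 3.93 CPM, and 0.338 in T cells. The MHC class II genes H2-Ab1, H2-Aa and H2-Eb1 had ratios of 2.91, 2.34 and 2.53 in Hmga2/Tm4sf1 cells of Ac, and of 0.311, 0.306 and 0.306 in T cells. Cd74, the invariant chain of MHC class II, had 3.14 and 0.350, and C3 had 2.20 and 0.400. The T cell pools of aC+C, C, Ac and IgG also held monocyte and macrophage genes, at a summed 1811, 5166, 1816 and 2620 CPM. Their MHC class II genes summed to 966, 4839, 1405 and 4231 CPM. The part of RNA from other cells in these T cell ratios was not tested.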

How the results depend on the processing

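Removing doublets and a mitochondrial maximum of 20% turned no value round, moved none beyond its spread and no count beyond 1.5 times. The thinned rule asked for any UMI of Hmga2 and any of Tm4sf1 in the thinned counts, with the Ptprc limit on unthinned counts. The fibroblast-like cells were still chosen on unthinned counts, so this rule does not make the depth of the classes alike. The share under the thinned rule was taken only of barcodes with enough UMIs to thin. In aC+C, C, Ac and IgG these numbered 3250, 3341, 3392 and 2777, and the share was 6.52%, 2.57%, 2.59% and 2.12%. In the same order, the share of kept barcodes was 9.34%, 6.15%, 4.47% and 3.64% with no Ptprc limit. A minimum of 10000 UMIs gave 14.1%, 6.48%, 7.11% and 4.91%. Ptprc at 0 gave 6.32% in aC+C and 2.69% in C, few immune transcripts 4.68% in aC+C, 2.31% in C and 3.08% in Ac, and at least 3 UMIs of both genes 2.85% in C. Genes higher and lower than in fibroblast-like cells were 93 and 44 with 300 UMIs per gene. They were 0 and 5 in cells with few cell cycle UMIs, and 0 and 162 with no Ptprc limit in fibroblast-like cells. A 5% mitochondrial maximum gave 129 higher, weighting each cell the same 39 lower, and no UMI minimum 786 lower. Leaving out each library in turn gave 220 to 269 higher and 87 to 115 lower, and a mesenchymal median of 1.05 to 1.14.

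Higher and lower genes over IgG were 41 and 29 in aC+C, 14 and 4 in C, and 10 and 6 in Ac with 300 UMIs per gene. With no minimum they were 398 and 2611, 1064 and 1146, and 410 and 1449. Lower genes of aC+C were 48 with Ptprc at 0, 41 with TMM and 203 with no Ptprc limit. Higher genes of C were 16 with Ptprc at 0, 14 with background subtracted, 20 in cells with few cell cycle UMIs, 18 with few immune transcripts and 243 with no Ptprc limit. Lower genes of C were 24 with the thinned rule. Higher genes of Ac were 14 with background subtracted and 12 with few immune transcripts, and lower genes of Ac 8 in cells with few cell cycle UMIs and 125 with no Ptprc limit.

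List medians over fibroblast-like cells moved as follows. In cells with few cell cycle UMIs they were 0.452 for fibroblast, 1.01 for mesenchymal, 0.566 for matrix, 0.845 for protease, 0.945 for MHC class I and 0.760 for immediate early genes. They turned round there for cyclins and kinases (0.917) and interferon gamma (1.03). As the cells were chosen by cell cycle UMIs, the change for cyclins and kinases is partly built in. With no Ptprc limit in fibroblast-like cells they were 0.514 for fibroblast, 1.04 for mesenchymal, 0.705 for matrix, 1.13 for L6 and tetraspanin, 0.981 for protease, 1.38 for S phase, 1.52 for G2 and M phase, 1.14 for cyclin, 0.939 for MHC class I and 0.856 for immediate early genes, and 0.990, turned round, for glycolysis. With Hmga2 at 0 in fibroblast-like cells they were 1.21 for growth factors, 0.975 for MHC class I, 0.903 for interferon gamma and 0.542 for immediate early genes. Growth factors had 1.11 with TMM and 1.12 with cells weighted the same, where immediate early genes had 0.689. Glycolysis had 1.42 with TMM, 1.36 with at least 3 UMIs of both genes and 1.25 with the thinned rule.

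Single genes turned round in cells with few cell cycle UMIs: Fam64a (0.990) and Ccna2 (0.841) over fibroblast-like cells, Lif (1.04) in C over IgG, and Areg (0.956) in Ac over IgG. For Fam64a and the cyclin Ccna2 the change may be built into that choice of cells. With no Ptprc limit, Fyb (0.730), Tnfaip3 (0.816) and the MHC class II median (0.943) turned round in Ac over IgG. The settings on few cell cycle UMIs, few immune transcripts, Hmga2 at 0 and no Ptprc limit in Hmga2/Tm4sf1 cells were chosen after seeing the data; the causes of these changes were not tested. Leaving out cells with at least 5 Dcn UMIs left too few cells to give a value, and Tyrobp and Cd52 in C over IgG had none once background was subtracted. No paired analysis was possible because each group has 1 library. Depth limits genes of few UMIs, above all in the 37 fibroblast-like cells of IgG.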

Other observations

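Among fibroblast-like cells, 10 held at least 5 Xist UMIs, 2 in aC+C, 4 in C, 0 in Ac and 4 in IgG. Of these, 8 had Dpt, 7 had Pi16, a gene of adventitial fibroblasts, and 9 had no Hmga2. Immediate early genes, which respond to handling of tissue as well as to growth signals, had a median ratio of 0.600 in Hmga2/Tm4sf1 cells over fibroblast-like cells. None of 14 was called in either direction, beside 2.98% higher and 1.25% lower over all genes counted. Fos had a ratio of 0.533 and Junb of 0.540.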
